A study of Mus musculus with 4 samples.

Results

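IgA plasma cells, the antibody-secreting cells whose heavy chain is IgA, were described in subcutaneous KPC tumours of C57BL/6NHsd mice. KPC is a mouse pancreatic carcinoma line. Of 51841 CD45+ cells within the limits on genes and mitochondrial UMIs, 1166 were plasma cells and 98 of these were IgA plasma cells. The 98 were selected on 3 measured values: at least 1 of Mzb1, Derl3, Tnfrsf17 and Sdc1 detected, at least 10 UMIs from heavy-chain constant genes, and at least 70% of those UMIs from Igha. The other 1068 plasma cells passed the same limits without the Igha share. They held 686 IgG, 356 IgM and 26 mixed cells.

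The host mice were male C57BL/6NHsd animals used at 8 to 10 weeks of age, and all carried the same tumour line. Live CD45+ cells were sorted on day 14 from 10 pooled tumours per group, and each group gave 1 single-cell 5′ library. The Untreated group had no agonist. The STING agonist group received 2 μg ADU-S100 into the tumour. The LTbR agonist group received 4 doses of 100 μg of an antibody (4H8) that activates the lymphotoxin-β receptor, given into the peritoneum, and the STING and LTbR agonist group (the combination) received both. In the series used here, pooling and the single library leave no replicate of a treatment, so no test between treatments was possible. Any other experiment of the study was not analysed here. Values in sets of 4 follow this order of groups.

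IgA is the main antibody of mucosal surfaces. Class switching to it joins the variable region to Igha, the last constant gene of the heavy-chain locus, and is driven by TGF-β. IgA plasma cells add the J chain, encoded by Jchain, which links IgA monomers into polymers that epithelium can transport, and they home to mucosa through receptors such as Ccr9, Ccr10 and the integrin subunit Itgb7.

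The isotype call rests on reads from constant exons, so the starts of the first constant exons are shown to make plain how far Igha differs from the genes it was told apart from. Capitals mark bases that align with the same base in Igha, and each sequence runs 5′ to 3′ from the minus strand of GRCm38 (GENCODE vM21). The Igha stretch lies at chr12:113260177-113260236, that of Ighm at chr12:113422671-113422730, that of Ighg1 at chr12:113330464-113330523 and that of Ighg2c at chr12:113288873-113288932.
Igha: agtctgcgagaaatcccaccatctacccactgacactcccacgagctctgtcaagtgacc
Ighm: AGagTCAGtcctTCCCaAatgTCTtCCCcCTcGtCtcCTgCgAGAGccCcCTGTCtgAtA
Ighg1: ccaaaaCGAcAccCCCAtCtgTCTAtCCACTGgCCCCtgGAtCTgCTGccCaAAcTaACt
Ighg2c: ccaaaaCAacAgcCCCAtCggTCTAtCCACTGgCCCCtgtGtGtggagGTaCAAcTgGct
Over the whole exon, Igha matched Ighg1 at 57.4% and Ighm at 52.3% of aligned columns, with no shared run longer than 9 bases. Ighg1 and Ighg2b matched at 88.3% and shared a run of 37 bases. At this exon Igha was thus distinct from both isotypes, whereas these IgG genes were close to each other, and IgG was kept as 1 class.

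The Igha share was far from its threshold in nearly every member. The median was 99.8%, the lowest 81.8% (9 of 11 heavy-chain UMIs), and the highest outside was 63.6% (7 of 11), followed by 16.7%. The count threshold was less clear: the members nearest to it had 11, 15 and 17 heavy-chain UMIs, and those just outside had 9, 8 and 7. A further 36 cells met the Igha thresholds without a plasma cell marker, the highest with 105 heavy-chain UMIs. In all, 10 of the 98 had fewer than 100 heavy-chain UMIs. Of these, 9 had only 1 plasma cell marker and Jchain ran from 0 to 15 UMIs.

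Jchain, which the rule did not use, was detected in 97 of the 98 cells, against 95.9% of IgG and 68.5% of IgM plasma cells and 7.21% of T cells. The markers of the rule are given as a description. Mzb1, a chaperone of antibody assembly, was detected in 85, Derl3 of the degradation path of the endoplasmic reticulum in 63, Sdc1 (CD138) in 58 and Tnfrsf17 (the receptor BCMA) in 41. The 9 B cell markers summed to 882 CPM in IgA cells and 924 in IgG cells, with Fcer2a at 0 in both, and to 3156 in IgM plasma cells. Levels are given throughout as CPM, UMIs of a gene per 1000000 UMIs outside immunoglobulin genes. Free Igha RNA was present, since 3.87, 0.848, 14.4 and 14.7% of T cells held an Igha UMI, but with at most 8 UMIs in a cell. Median depth outside immunoglobulin genes was 3279 UMIs in T cells and 4213 in IgA plasma cells.

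UMIs of other lineages were common in the members. Of the 98 cells, 35 held at least 3 UMIs of T cell, macrophage or neutrophil markers (35.7%), against 17.1% of IgG and 19.7% of IgM plasma cells. By library these were 0 of 5, 4 of 5, 10 of 31 and 21 of 57 cells. The 10 macrophage and monocyte markers summed to 104, 14555, 4260 and 4560 CPM in IgA cells and to 3510, 763, 2159 and 3240 in the other plasma cells. T cell markers summed to 0 to 46.5 CPM in IgA cells, with Cd3d, Trbc2 and Cd8b1 at 0 in all 4 libraries, and the 6 neutrophil markers to 0, 0, 27.9 and 700 (Mmp9 at 0). Differences without these 35 cells are given beside the results.

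Some members were close copies of each other. Within a library, 25 of 68 pairs of IgA cells with the same leading heavy and light V genes differed outside immunoglobulin genes by no more than sampling noise (36.8%), whereas 1 of 1936 pairs with other V genes did. Among other plasma cells with the same V genes the share was 2.36% (139 of 5891). These pairs formed 9 sets of 25 barcodes, and counting each set once left 82 cells. This step was chosen after seeing the data. In the combination library, 4 barcodes with Ighv1-80 and Igkv12-44 held 64 of all 64 Ghr, 67 of 69 Efna5 and 114 of 115 Hmga2 UMIs of the 98 cells. In the STING agonist library, 4 of the 5 members were barcodes with Ighv8-12 and Igkv10-96, each with 21 to 33 UMIs of the macrophage gene C1qa and 30 to 44 of Lyz2. These 5 genes were picked after their values were seen. One barcode of an IgA plasma cell was shared between libraries (LTbR agonist and combination).

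IgA plasma cells were more frequent among CD45+ cells of the LTbR agonist and combination libraries, and so were plasma cells as a whole, at 70 of 7776, 55 of 14326, 389 of 14041 and 652 of 15698 cells. The 4 libraries held 5, 5, 31 and 57 IgA plasma cells. Their share of cells was 0.0643% (95% Clopper-Pearson interval 0.0209 to 0.150), 0.0349% (0.0113 to 0.0814), 0.221% (0.150 to 0.313) and 0.363% (0.275 to 0.470). The share in the combination library was 5.65 times that in the untreated library (2.27 to 14.1) and 1.65 times that in the LTbR agonist library (1.06 to 2.55). With close copies counted once these ratios were 4.755 (1.894 to 11.94) and 1.651 (1.025 to 2.66). The STING agonist library stood at 0.543 times the untreated share (0.157 to 1.87), an interval that spans 1. The intervals cover counting error only, not mice, tumours or libraries. Without the 35 cells with other-lineage UMIs the shares were 0.0643, 0.00698, 0.150 (0.0926 to 0.2285) and 0.229% (0.1607 to 0.3173), and no ratio was computed for them.

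Among plasma cells, the IgA share lay between 7.14 and 9.09% in the 4 libraries. It was 7.14% of 70 plasma cells (2.36 to 15.9), 9.09% of 55 (3.02 to 19.95), 7.97% of 389 (5.48 to 11.1) and 8.74% of 652 (6.69 to 11.2). The ratio of the combination to untreated was 1.22 (0.508 to 2.95) and to the LTbR agonist 1.10 (0.722 to 1.67). All 6 ratios between libraries had intervals that span 1, which for the smallest libraries also leave room for a change of more than 2-fold. With close copies counted once the shares were 7.58, 6.67, 7.54 and 8.09%. Without cells with other-lineage UMIs, 5, 1, 21 and 36 IgA cells stood beside 47, 38, 292 and 497 other plasma cells. The STING agonist library then held the lowest IgA share instead of the highest, resting on 1 cell.

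**Figure D1:**
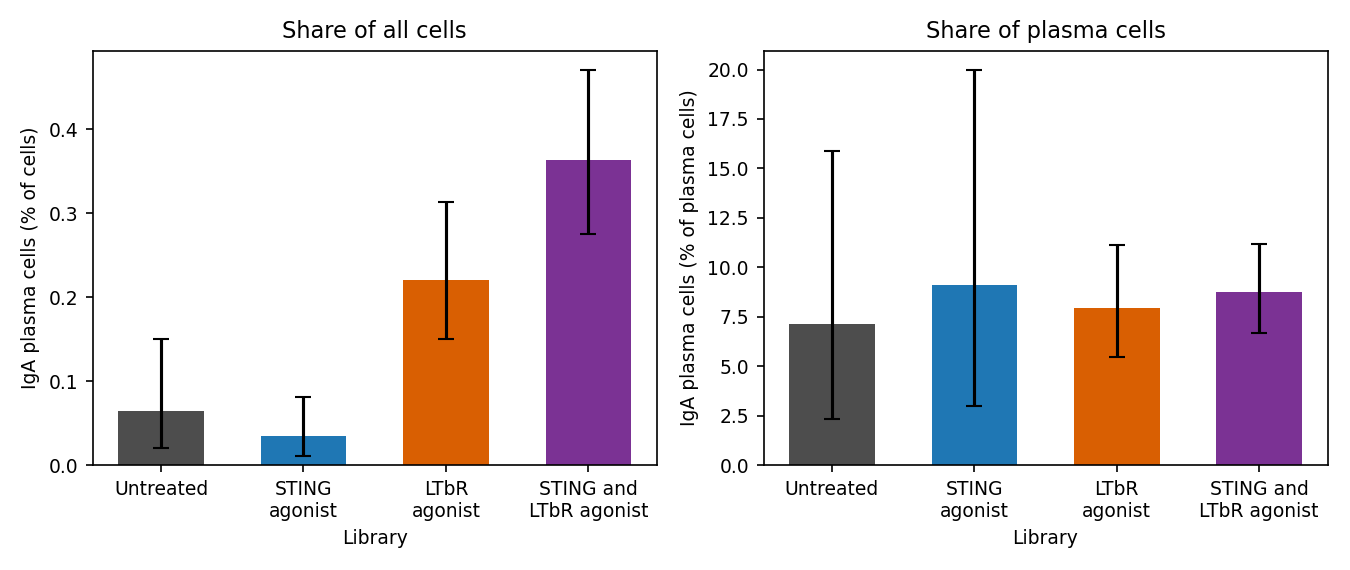
IgA plasma cells as a share of all CD45+ cells (left) and of plasma cells (right) in each library, in percent. Bars start at 0, and error bars are 95% Clopper-Pearson intervals for counting error. The left share was lowest at 0.0349% and highest at 0.363%, while the right share lay between 7.14 and 9.09%. The right range did not hold without cells with other-lineage UMIs, where the STING agonist library kept 1 IgA and 38 other plasma cells.

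Antibody transcript content varied widely among the members, and its median lay near that of IgG plasma cells, at 1390 against 1327 heavy-chain UMIs per cell. Igha ran from 9 to 7002 UMIs per cell with a median of 1384. Library medians were 4087, 1616, 1999 and 951, and the combination library was also the shallowest outside immunoglobulin genes (medians of 11165, 10582, 5680 and 3390 UMIs). Immunoglobulin genes took a median of 40.02% of a member's UMIs, against 39.7% in IgG and 31.3% in IgM plasma cells. Of 96 cells with at least 10 UMIs of light-chain constant genes, 82 had over 80% kappa and 12 had under 20% (12.5%, 6.63 to 20.8), against 12.9% of IgG cells for the latter.

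**Figure D2:**
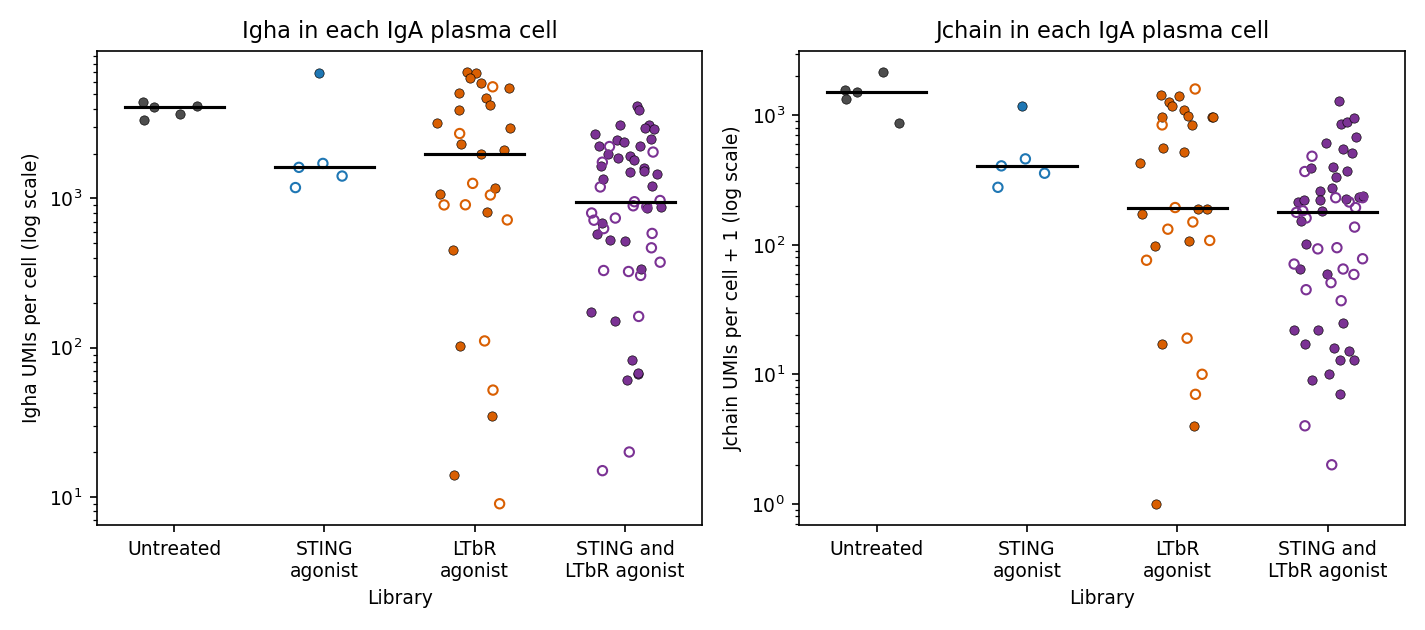
Igha (left) and Jchain (right, plus 1) UMIs in each of the 98 IgA plasma cells by library, on log axes. Open circles are cells with at least 3 UMIs of other lineages and black lines are medians. Igha spanned 9 to 7002 UMIs, and the medians of both genes were lowest in the combination library.

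IgA plasma cells were compared with IgG plasma cells of the same libraries to ask how the switched classes differ beyond the heavy chain. IgA cells held more Jchain and Txndc5 transcript in each library, and more Hdac9, Btla, Adgrl2 and Bcl2. They held less Ly6c2, Cd52, Slpi, Mki67 and Top2a. Of 9243 genes tested on summed UMIs with the library as a block, 114 were called at an edgeR adjusted p under 0.05 (1.23%), 68 higher (0.736%) and 46 lower (0.498%) in IgA cells. Each p measures the spread across 4 libraries that also differ in treatment. The median log2 difference of all genes was −0.12. Without the untreated library 433 genes were called, without the LTbR agonist library 40 and without the combination library 57.

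Jchain, which builds the polymer link, stood at 128621, 48679, 76847 and 55387 CPM in IgA cells. In IgG cells it stood at 12026, 16607, 16842 and 12896. The log2 difference was 2.23 ± 0.37 (SE, 4 libraries, edgeR adjusted p = 0.000166, higher in 4 of 4). Summed over cells, IgM plasma cells, which also make polymers, lay between at 16644, 40104, 26428 and 25730, and the difference from them was not called (1.57, edgeR adjusted p = 0.1685). Medians per cell were 0, 289, 2 and 44 UMIs in IgM, 74.5, 109, 92 and 28 in IgG and 1520, 406, 193 and 177 in IgA cells. In the untreated library 1 IgM cell held 875 of the 1776 Jchain UMIs of that class. Txndc5, a disulfide isomerase of the endoplasmic reticulum, stood at 2095, 1890, 2462 and 1963 in IgA cells against 213, 584, 451 and 345 in IgG cells (log2 difference 2.40 ± 0.32, edgeR adjusted p = 5.78e-06, higher in 4 of 4). In IgM cells Txndc5 stood at 956, 1978, 1359 and 1552, above the IgA value in the STING agonist library, and the difference was not called (0.68, edgeR adjusted p = 0.797). With each cell thinned to 1000 UMIs outside immunoglobulin genes, 72.3% of IgA and 24.96% of IgG cells still held a Txndc5 UMI, against 87.8 and 60.1% before thinning and 10.3% of unthinned T cells.

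Of the 26 genes of the secretory list, Jchain and Txndc5 were the 2 called, both higher, and the median was −0.39. The regulators Xbp1 (−0.47), Prdm1 (−0.42) and Irf4 (−0.50) were not called (edgeR adjusted p = 0.647, 0.737 and 0.619). Tnfrsf17, the receptor for the survival factor APRIL, is a gene of the rule and was not tested. It stood at 277, 18.2, 214 and 137 CPM in IgA cells and at 12.8, 25.2, 40.2 and 15.9 in IgG cells. The value was higher in IgA cells in 3 of 4 libraries and rested on 1 UMI in the STING agonist library. Of the 9 tested survival genes, Bcl2, which blocks apoptosis, was the 1 called. It stood at 86.6, 218, 400 and 211 against 76.9, 27.9, 92.7 and 59.2 (log2 difference 1.77 ± 0.36, edgeR adjusted p = 0.00300), and its call was lost without the LTbR agonist library (0.213).

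Hdac9, a histone deacetylase, stood at 191, 218, 321 and 257 CPM against 56.4, 72.7, 14.2 and 15.9 in IgG cells (log2 difference 3.05 ± 0.42, edgeR adjusted p = 8.42e-06). Btla, an inhibitory receptor of lymphocytes, stood at 242, 90.9, 139 and 41.4 against 0, 19.6, 11.2 and 15.3 (3.06 ± 0.52, edgeR adjusted p = 0.000282), although its 14 UMIs in the untreated library came from 1 cell. In pooled IgM cells Hdac9 and Btla stood at 200 and 181 CPM, against 270 and 104 in pooled IgA cells. Adgrl2, an adhesion receptor of the latrophilin family, stood at 86.6, 127, 79.0 and 78.7 against 5.13, 2.79, 18.3 and 8.91 (3.01 ± 0.48, edgeR adjusted p = 0.000131). The rule that named these 3 genes required the same sign in every library. Kcnmb4, a potassium channel subunit (2.59), Pls1, an actin-bundling plastin (1.93), Ccser2 (1.75) and Bbs9, part of a ciliary transport complex (1.31), were also called and higher in 4 of 4 libraries. Slc9a9, a sodium and proton exchanger, was called at 2.37, but without cells with other-lineage UMIs the value was 0.78 (edgeR adjusted p = 0.825).

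The mucosal homing list showed 1 gene higher and 1 lower of 15 tested. Ccr10, a chemokine receptor of mucosal homing, was higher (2.36 ± 0.55, edgeR adjusted p = 0.0123), at 121, 18.2, 55.7 and 33.1 CPM against 10.3, 16.8, 7.09 and 8.27. In the STING agonist library the values rest on 1 against 6 UMIs and change order with the scaling: with the TMM factors of the test the log2 difference there was −0.12, so that 3 of 4 libraries were higher. The transcript was sparse, with 28 UMIs in 13 of 98 IgA cells (13.3%) against 35 UMIs in 25 of 686 IgG cells (3.64%) and 12 UMIs in 8 of 3745 T cells (0.214%). Cxcr3, a receptor for interferon-induced chemokines, was lower (−2.59, edgeR adjusted p = 0.0227), at 52.0, 0, 0 and 12.4 against 64.1, 58.7, 76.8 and 58.5. Among gut homing genes, Itgb7 differed by 0.03 (edgeR adjusted p = 0.994), Ccr9 had 2 UMIs in the 98 cells, and Gpr15 and Itgae had too few UMIs to be tested against IgG. Without the LTbR agonist library neither call held (edgeR adjusted p = 0.385 for Ccr10 and 0.696 for Cxcr3), and without the combination library neither did (0.0675 and 0.123).

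Of 18 tested genes of IgA switching and TGF-β signalling, Runx2, a transcription factor that acts in switching to IgA, was higher (2.33 ± 0.47, edgeR adjusted p = 0.00300). It stood at 86.6, 18.2, 158 and 74.6 CPM against 10.3, 0, 25.4 and 24.2. Smad3, a TGF-β signal transducer, was lower (−1.69, edgeR adjusted p = 0.0417), at 17.3, 18.2, 23.2 and 49.7 against 118, 78.2, 89.8 and 99.2. Neither was called without the LTbR agonist library (0.304 and 0.543), and Smad3 was also not called without the STING agonist (0.0696) or the combination library (0.131). Tgfbr2 (1.03) and Runx3 (0.66) were not called.

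Of 20 tested genes of the cell cycle, 5 were called against IgG cells and these were lower in IgA cells, the median was −1.998, and 15 had an unadjusted p under 0.05. Mki67, a marker of cycling cells, stood at 52.0, 18.2, 92.9 and 120 CPM against 495, 358, 305 and 246 (log2 difference −2.10 ± 0.39, edgeR adjusted p = 0.000898, lower in 4 of 4). Top2a, the topoisomerase of dividing cells, stood at 34.6, 0, 32.5 and 4.14 against 221, 193, 125 and 85.9 (−2.99 ± 0.49, edgeR adjusted p = 0.000151). Pclaf (−2.63) and Rrm2 (−3.38) were lower too. Ccna2, a cyclin, had 0 UMIs in IgA cells and was at least 4.07-fold lower, taking 3 UMIs over the 98 cells as the limit, and so were Ect2 (at least 4.02-fold) and the histone gene H2ac6 (at least 3.74-fold). Kif11, a mitotic motor (−4.51), and the histone genes H2ac8 (−3.08), H2ac4 (−3.20) and H1f1 (−3.85) were called outside the list. H2ac4, H2ac6 and H2ac8 are close copies of each other, so the split of reads between them is uncertain. A Mki67 UMI was found in 24 of 98 IgA cells (24.5%), 34.1% of IgG cells and 12.6% of T cells, and in 8.51% of IgA and 12.6% of IgG cells after thinning. In the LTbR agonist library 14 of the 20 Mki67 UMIs came from 1 IgA cell, and after thinning neither Mki67 (−1.64, edgeR adjusted p = 0.561) nor Top2a (−3.11, 0.467) was called. Pclaf was not called without the STING agonist (edgeR adjusted p = 0.105) or LTbR agonist library (0.171), nor Rrm2 without the LTbR agonist (0.0995) or combination library (0.188). Ccna2, Ect2, H1f1 and H2ac6 were not called without the STING agonist (0.0541 to 0.0756), LTbR agonist (0.196 to 0.571) or combination library (0.131 to 0.492), nor H2ac6 without the untreated library (0.120).

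Ly6c2, which encodes a membrane-anchored surface protein, was lower in IgA cells in every library, although reads may be split with its close paralog Ly6c1. It stood at 779, 363, 623 and 551 CPM in IgA cells and 3400, 3443, 4001 and 3404 in IgG cells (log2 difference −2.73 ± 0.32, edgeR adjusted p = 5.89e-07). After thinning, 29.8% of IgA and 67.1% of IgG cells held a UMI, against 52.0 and 82.7% before and 38.5% of unthinned T cells. Cd52, another membrane-anchored protein of lymphocytes, was lower at 693, 818, 850 and 845 against 2146, 4496, 1685 and 2117 (−1.66 ± 0.32, edgeR adjusted p = 0.00140). Slpi, a secreted protease inhibitor chosen after its values were seen, stood at 43688, 11974, 5305 and 8325 against 74233, 72340, 74380 and 76752 (−2.72 ± 0.41, edgeR adjusted p = 5.04e-05). One cell held 2362 of the 2523 Slpi UMIs of IgA cells in the untreated library, and another held 512 of 659 in the STING agonist library. Ly6a2 (−3.08), Arpp21 (−4.07) and Diaph3, an actin regulator (−3.35), were also lower. Of 18 tested genes of antigen presentation and B cell identity, Cd52 and Bank1 (−1.65) were the 2 called, while Cd74 was not (−0.13, edgeR adjusted p = 0.952). Bank1 was not called without the STING agonist (0.0810) or combination library (0.473). Of 8 genes of innate-like B cells none was called by edgeR, with 3 at an unadjusted p under 0.05. Zbp1, a nucleic acid sensor, was the 1 called of 26 interferon-stimulated genes (−1.51, edgeR adjusted p = 0.0121, not called without the LTbR agonist library at 0.186 or the combination library at 0.173). No regulatory or effector product of 10 tested was called by edgeR, while 3 had an unadjusted p under 0.05, among them Il10 (−1.23) and Cd274, which encodes PD-L1 (−0.94).

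**Figure D3:**
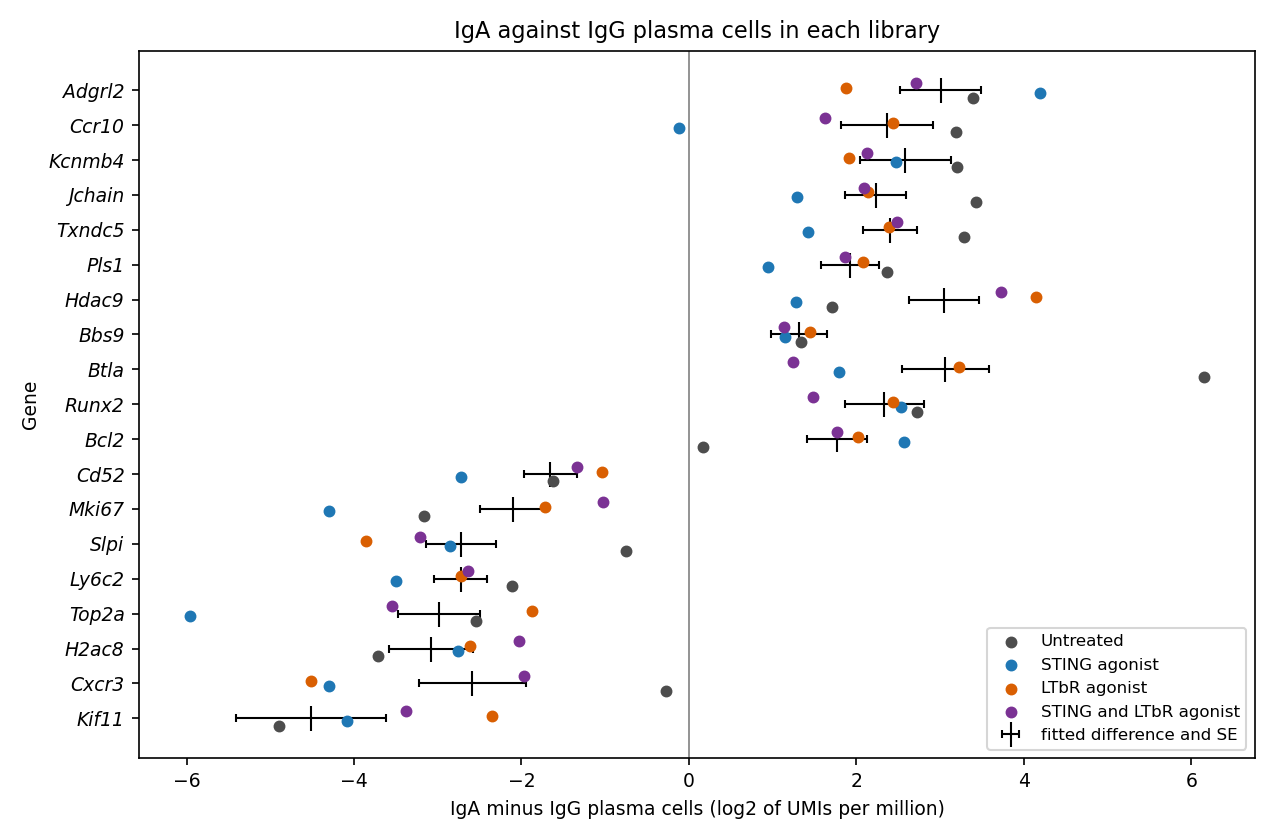
Difference between IgA and IgG plasma cells in each library (coloured points) and the fitted difference with its SE (black), in log2 of CPM with TMM factors, for 18 genes named by rule and Slpi, which was chosen after its values were seen. Points to the right of 0 are higher in IgA cells. Jchain, Txndc5, Hdac9 and Btla lie to the right and Ly6c2, Mki67, Top2a and Slpi to the left in 4 of 4 libraries, while Ccr10 lies to the right in 3.

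Without the 35 IgA cells with other-lineage UMIs and such cells of the IgG class, a fit in which the STING agonist library dropped out because 1 IgA cell was left, 18 of the 68 higher calls and 28 of the 46 lower calls remained. Of the 13 higher calls with the same sign in 4 of 4 libraries 12 remained, and of the other 55 higher calls 6 did. Jchain (2.71), Txndc5 (3.01), Hdac9 (4.17), Btla (3.54), Adgrl2 (3.10), Ccr10 (2.85), Ly6c2 (−2.31), Mki67 (−2.15) and Slpi (−2.44) were called in that fit. Pclaf (edgeR adjusted p = 0.0599), Rrm2 (0.170), Ccna2 (0.321), Ect2 (0.0787), H1f1 (0.378), H2ac4 (0.138), H2ac6 (0.256), Bank1 (−1.06, 0.124) and Slc9a9 were not. With close copies counted once, 50 of 68 and 42 of 46 remained. Not called without the LTbR agonist library were Kcnmb4 (edgeR adjusted p = 0.0952), Pls1 (0.0721), Bbs9 (0.460), Diaph3 (0.0724), Ly6a2 (0.0594), H2ac4 (0.0705) and Arpp21 (0.336). Not called without the combination library were Kcnmb4 (0.0733), Bbs9 (0.173), Ly6a2 (0.124) and Arpp21 (0.132), and Ccser2 was not called without the STING agonist library (0.0559).

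**Figure D4:**
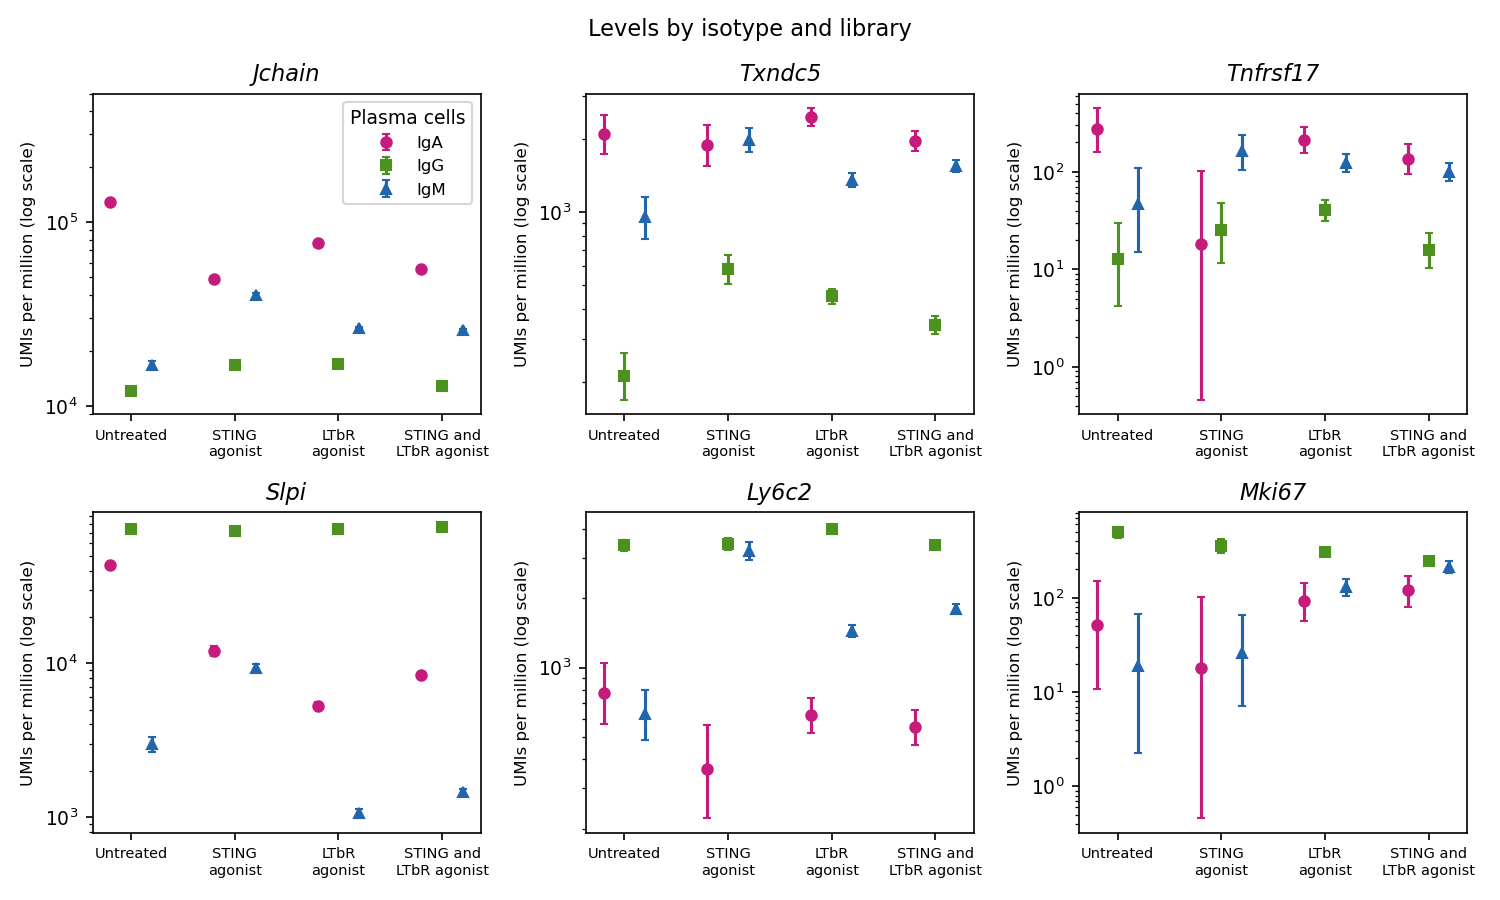
CPM, on log axes, in IgA, IgG and IgM plasma cells of each library. Error bars are exact Poisson 95% intervals for counting error, and the Tnfrsf17 and Mki67 points of IgA cells in the STING agonist library rest on 1 UMI each. IgA points lie above IgG points for Jchain and Txndc5 and below them for Ly6c2 in 4 of 4 libraries.

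Against IgM plasma cells, IgA cells held less Ms4a1, Bank1, Pax5 and other genes of B cells, and more Ccr10 and Vpreb3. Of 7971 genes tested, 27 were called (0.339%), 7 higher (0.0878%) and 20 lower (0.251%), whereas totals with immunoglobulin genes and no TMM factors, changed together, gave 0 higher and 8 lower. Of 22 tested genes of antigen presentation and B cell identity, 6 were lower and the median was −1.43. Ms4a1 (CD20) stood at 17.3, 0, 41.8 and 12.4 CPM in IgA cells against 197, 116, 662 and 349 (log2 difference −4.15 ± 0.48, edgeR adjusted p = 0.00699). Bank1, a B cell receptor adaptor (−4.16), and Pax5, the transcription factor of B cell identity (−5.30), were lower as well, as were Cd22 (−3.12) and Cd37 (−2.19). The chemokine receptors Ccr6 (−4.79) and Cxcr5 (−3.75), which guide B cells to follicles and epithelium, and Il5ra, the receptor for interleukin 5 (−3.51), were also lower. Siglech, a marker of plasmacytoid dendritic cells, and Bcl11a, Cox6a2, Grm8 and Spib had 0 UMIs in IgA cells and were at least 27.8-, 21.5-, 15.8-, 13.95- and 12.4-fold lower over the pooled libraries. The bounds for Siglech, Cox6a2 and Grm8 rest mostly on few IgM cells, 4 of 14 in the untreated and 3 of 14 in the STING agonist library for each gene. Levels in IgM cells were 1200, 731, 33.4 and 0 CPM for Siglech, 562, 491, 9.75 and 9.64 for Cox6a2, and 394, 524, 12.5 and 1.205 for Grm8. In the combination library, with 57 of the 98 IgA cells, Siglech was thus at 0 in both classes.

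Ccr10 was again higher (3.44 ± 0.62, edgeR adjusted p = 0.0443, higher in 4 of 4), against 9.37, 0, 2.79 and 6.02 CPM in IgM cells. The Ccr10 values rest on 7, 1, 12 and 8 UMIs in IgA cells against 1, 0, 2 and 5 in IgM cells. In the untreated library 1 IgA cell held 5 of the 7. Ccr10 was called in 3 of the 8 alternatives in which it could be tested. Vpreb3, a B lineage protein of the endoplasmic reticulum, stood at 121, 182, 51.1 and 104 against 0, 19.4, 0 and 19.3 (3.51 ± 0.63, edgeR adjusted p = 0.0443). Osbpl3, an oxysterol-binding protein, was higher by 2.90. The secretory list had no call by edgeR among 26, with 5 at an unadjusted p under 0.05, and a median of 0.46. The cell cycle list had none among 10 tested, with 3 at an unadjusted p under 0.05. None was called either of 9 survival, 11 regulatory, 9 innate-like B cell and 26 interferon-stimulated genes, with 0, 1, 3 and 2 at an unadjusted p under 0.05.

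The IgM class held more cells with little heavy chain. Fewer than 100 heavy-chain UMIs were found in 138 of its 356 cells, against 10 of 98 IgA cells, and markers of plasmacytoid dendritic cells (Siglech, Ccr9, Klk1, Cox6a2) summed to 586 UMIs in 19 of its cells (264 UMIs in 4 untreated and 266 in 3 STING agonist cells), against 2 UMIs, both of Ccr9, in IgA cells. The part of these cells in the differences was not tested. With at least 2 plasma cell markers required of each class, edgeR called 0 of 6603 genes and 219 had an unadjusted p under 0.05. The differences of Ms4a1 (−1.98), Bank1 (−2.34) and Cd37 (−0.64) were then closer to 0, that of Il5ra was −4.17 and that of Ccr10 2.85, and Pax5, Cd22, Ccr6, Cxcr5, Bcl11a, Cox6a2, Grm8 and Spib were too low to be tested. No gene was called by edgeR without the LTbR agonist library (200 at an unadjusted p under 0.05) or without the combination library (305), 12 were without the STING agonist library and 95 without the untreated library. Without the STING agonist library Ccr10 (edgeR adjusted p = 0.0984), Vpreb3 (0.152), Ccr6 (0.0984), Cd22 (0.0963), Cd37 (0.102), Cxcr5 (0.120), Cox6a2 (0.121), Grm8 (0.219) and Spib (0.101) were not called. Ccr10 was too low to be tested without the untreated library.

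Against all other plasma cells of each library, IgA cells held more Jchain, Txndc5, Adgrl2 and Hdac9 and less Ly6c2, Mki67, Ms4a1 and Pax5. Ms4a1 and Pax5 were not among the calls against IgG cells, nor Ly6c2, Mki67 and Top2a among those against IgM cells. The 9 B cell markers summed to 882 CPM in IgA, 924 in IgG and 3156 in IgM cells. Of 10103 genes tested, 86 were called (0.851%), 50 higher (0.495%) and 36 lower (0.356%), and 10 of the 50 were higher in 4 of 4 libraries. These 10 were Adgrl2 (2.62), Ccr10 (2.55), Hpgds (2.36), Kcnmb4 (2.17), Jchain (1.97), Txndc5 (1.61), Pls1 (1.60), Hdac9 (1.56), Ccser2 (1.503) and Bbs9 (1.31). Totals with immunoglobulin genes and no TMM factors, changed together, gave 11 higher and 17 lower, and DESeq2 10 and 13. Without the untreated, LTbR agonist or combination library 270, 47 and 36 genes were called. Hpgds, a prostaglandin synthase also made by myeloid cells, was too low to be tested without cells with other-lineage UMIs, a fit that again dropped the STING agonist library, whereas the other 9 were called there. With close copies counted once, Hpgds stood at 1.76 and was not called (edgeR adjusted p = 0.221), and the 4 STING agonist cells that share their V genes held 10 of its 31 UMIs in IgA cells. Among the lower genes were Ly6c2 (−2.43), Ms4a1 (−3.03), Bank1 (−3.08), Pax5 (−3.99), Mki67 (−1.77), Top2a (−2.71), Fcrl5 (−4.61) and Plac8 (−1.64). By list, 5 of 24 genes of B cell identity and antigen presentation, 3 of 20 of the cell cycle, 1 of 18 of switching (Il5ra, −2.24) and 1 of 9 of innate-like B cells (Plac8) were lower, and 2 of 26 of the secretory list and 1 of 19 of mucosal homing were higher. No gene was called by edgeR of 28 interferon-stimulated, 9 survival and 11 regulatory genes, with 4, 4 and 3 at an unadjusted p under 0.05.

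Adgrl2, Txndc5, Ly6c2, Ms4a1, Bank1, Mki67 and Top2a were called with each library left out in turn. With at least 2 plasma cell markers, Ms4a1 stood at −1.95 and was not called (edgeR adjusted p = 0.110), and Pax5 was too low to be tested. Mki67 was not called by DESeq2 (adjusted p = 0.169) or with totals that include immunoglobulin genes and no TMM factors (edgeR adjusted p = 0.0502). After thinning, Ly6c2 was called (edgeR adjusted p = 0.00410), whereas Txndc5 (1.09, 0.884), Ms4a1 (−2.86, 0.434), Bank1 (−2.52, 0.391), Mki67 (−1.49, 0.815) and Top2a (−3.05, 0.709) were not, and Adgrl2 was too low to be tested. Jchain, Pax5 and Slpi (−2.17) were not called without the combination library (edgeR adjusted p = 0.0879, 0.0846 and 0.107), Ccr10 was not without the LTbR agonist library (0.278), and Plac8 was not without the STING agonist library (0.0867). Slpi went the other way against IgM cells, which held 2971, 9347, 1058 and 1449 CPM, less than IgA cells in each library (2.41, edgeR adjusted p = 0.0710, not called). Hpgds, Kcnmb4, Pls1, Hdac9, Ccser2 and Bbs9 were not called without the LTbR agonist library (0.0590 to 0.559), nor were Hpgds, Kcnmb4, Pls1, Hdac9 and Bbs9 without the combination library (0.0736 to 0.316) or Hpgds (0.256), Ccser2 (0.321) and Bbs9 (0.0571) without the STING agonist library. Fcrl5 and Il5ra were not called without the LTbR agonist (0.270 and 0.0509) or the combination library (0.0956 and 0.229).

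The V genes of IgA plasma cells were spread over many segments, with small groups of cells sharing a pair. A leading heavy and a leading light V gene with at least 10 UMIs each were found in 83 of 98 cells. Pairs were counted in these cells only, which used 30 heavy and 28 light V genes in 46 combinations of pair and library. Of these, 19 pairs occurred in at least 2 cells and held 56 cells (67.5%), against 83.0% in IgG and 54.8% in IgM plasma cells. With close copies counted once, 37 of 68 cells shared a pair (54.4%), against 79.4 and 48.2%. The classes differ in their number of cells, and the shares were not tested against each other. Ighv1-26 led the heavy chains with 8 of 68 cells in 3 libraries, followed by Ighv1-55 with 6 and Ighv8-8 with 5, and Iglv1 led the light chains with 11 of 68 (16.2%).

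Some pairs were found in other isotypes. Of 44 distinct pairs, 6 were also found in IgG and 3 in IgM plasma cells, and 2 were found in IgA cells of 2 libraries. Ighv8-8 with Iglv1 was seen in 4 IgA, 52 IgG and 2 IgM cells. Ighv1-39 with Igkv8-30 was seen in 1 IgA and 43 IgG cells, and Ighv3-6 with Igkv6-25 in 2 IgA and 6 IgM cells. A shared V pair does not establish a clone, since the junction sequences were not analysed here.

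**Figure D5:**
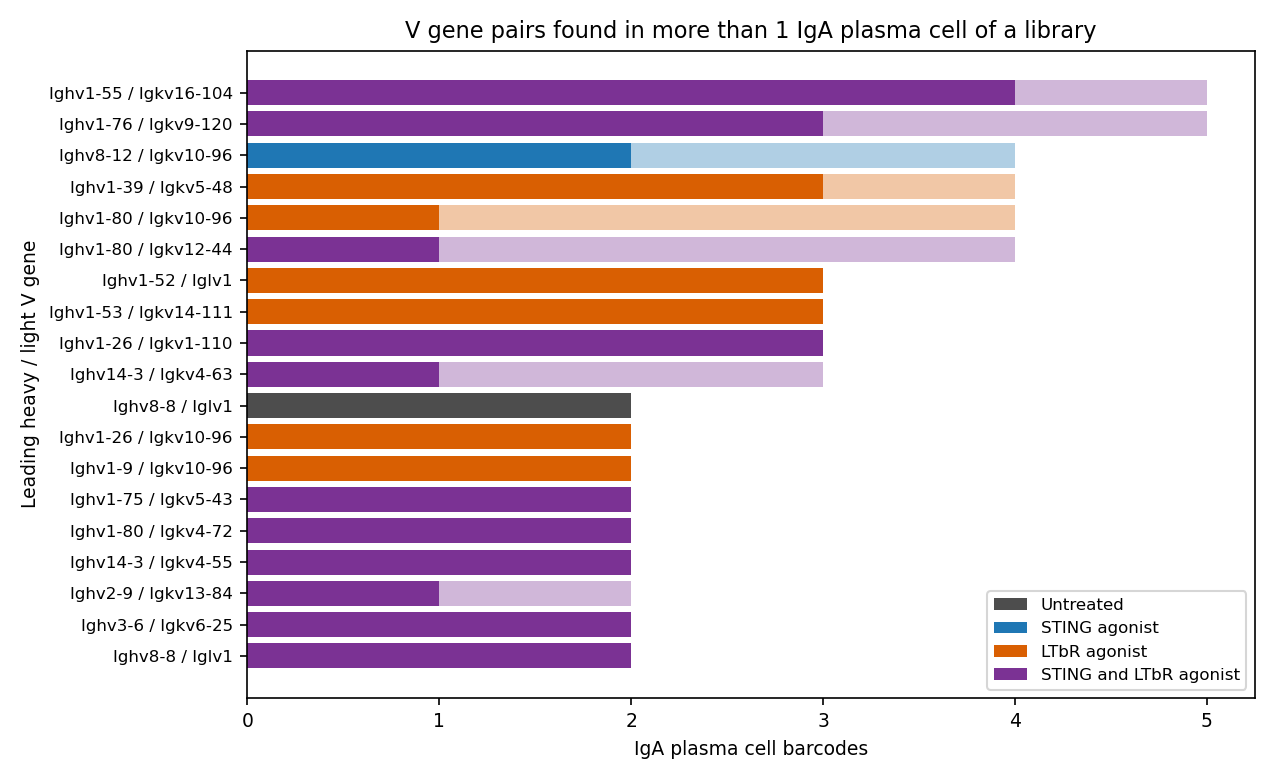
Number of IgA plasma cell barcodes with each pair of leading heavy and light V genes, for the 19 pairs found in at least 2 barcodes of a library. Only barcodes with at least 10 UMIs of each leading V gene were counted. Solid bars count barcodes that agree within sampling noise once and pale extensions show the rest. Ighv1-80 with Igkv12-44 falls from 4 barcodes to 1, while Ighv1-52 with Iglv1 stays at 3.

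Within the IgA class, summed lists were set side by side across treatments, for which no test was possible. The summed interferon-stimulated list stood at 4242, 5324, 5249 and 4452 CPM, the counting intervals of untreated (3728 to 4808) and STING agonist (4732 to 5970) overlapping. In IgG cells it stood at 4954, 8034, 4958 and 5023, highest in the STING agonist library, and in IgM cells at 8847, 6329, 5328 and 5215, highest in the untreated library. The summed cell cycle list was 242, 273, 641 and 435 in IgA cells and below the IgG values of 1774, 1640, 1232 and 959 in each library. Antigen presentation and B cell genes summed to 9731, 6487, 13676 and 16865, and Cd74, the invariant chain of MHC class II, to 6770, 3398, 7093 and 8296. Without cells with other-lineage UMIs, an alternative added after the data were seen that leaves 5, 1, 21 and 36 IgA cells, the order of the libraries changed. The antigen presentation list then summed to 9731, 10278, 9970 and 8818, and Cd74 to 6770, 6225, 5920 and 5487. The interferon-stimulated list summed to 4242, 3818, 5360 and 3736 in those cells, and the cell cycle list to 242, 0, 342 and 341, the 0 resting on 1 cell. Among all IgA cells the untreated and STING agonist values rest on 5 cells each, and 4 of the latter share their V genes.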

How the data were processed

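Per the file headers and labels, the authors deposited UMI counts per gene and cell for 4 libraries of CD45+ tumour cells, with no normalization. The submitters' processing notes name Cell Ranger 7.1.0 and mm10, whereas the file headers name a later Cell Ranger version. All 33696 features carry symbols. Cells with 300 to 5000 genes and at most 6% mitochondrial UMIs were kept, as in the methods of the study. No doublet caller was run, and cells with at least 3 UMIs of other lineages were left out as an alternative. Members, gene lists and the rule for named genes were chosen with earlier results of these data known.

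UMIs were summed per library and class, since cells are not replicates, and classes were compared within libraries by edgeR 4.0.16 (quasi-likelihood test, two-sided, Benjamini-Hochberg adjustment over all genes, TMM on totals without 390 immunoglobulin genes, library as block, genes with at least 30 UMIs, libraries with at least 3 cells of both classes). Heavy-chain constant genes, V, D, J and light-chain genes and the 4 plasma cell markers of the rule were not tested. The rule named every gene of the lists by counts, and per comparison up to 12 largest called rises and falls with the same sign in every library, without predicted, mitochondrial, ribosomal and sex-linked genes. Tests on simulated data changed only genes with at least 100 UMIs over all sums and drew counts at 1 common dispersion. Recovery of sparser genes was thus not tested. Against other, IgG and IgM plasma cells, these tests recovered 87.5, 100 and 90.0% of 4-fold rises and 5.00, 7.50 and 7.50% of 2-fold rises. For falls the rates were 40, 55 and 52.5% at 4-fold and 0, 12.5 and 7.5% at 2-fold. Of the unchanged genes 3, 7 and 1 were called, with 10103, 9243 and 7971 genes in all. Shares carry 95% Clopper-Pearson and levels exact Poisson intervals (Python 3.11.15, scipy 1.17.1), which cover counting error only. The alternatives were DESeq2 1.42.0, other scalings, filters, class rules and blocks, thinning, and leaving out libraries. Barcodes of a library with the same V genes and a chi-square per degree of freedom under 1.4 counted as within sampling noise. Library pairs shared 34 to 83 barcodes. Depth per IgA cell was 700 to 36032 UMIs.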

Additional observations from a re-analysis of the deposited data

How the results depend on the processing

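Between treatments no paired analysis was possible because each has 1 library. Classes were compared within libraries, with the library as the block. Genes called against other, IgG and IgM plasma cells numbered 86, 114 and 27. DESeq2 called 23 (10 higher, 13 lower) and 33 in the first pair, and 29 against IgM. Totals with immunoglobulin genes together with no TMM factors gave 28 (11 higher, 17 lower), 39 and 8 (0 higher, 8 lower) and moved the median log2 difference of all genes from −0.13 to −0.28 against other and from −0.08 to −0.49 against IgM plasma cells. A minimum of 10 UMIs gave 175, 241 and 112, one of 100 UMIs 3, 5 and 4, no library block 25, 49 and 11, and thinning 7, 10 and 35. Leaving out 1 library gave 36 to 270, 40 to 433 and 0 to 95. Against IgM cells, 90% purity gave 11, 2 plasma cell markers 0 (219 genes at an unadjusted edgeR p under 0.05), leaving out cells with other-lineage UMIs 272, counting close copies once 67 and both 268, where leaving out those cells also dropped the STING agonist library (1 IgA cell left). The causes were not tested.

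Without cells with other-lineage UMIs the IgA share of cells was 0.00698% (STING agonist), 0.150% (LTbR agonist), 0.229% (combination) and 0.122% (all). With 2 plasma cell markers it was 0.261% (combination) and 0.143% (all). For single genes, 773 of 1178 alternative values of 83 called differences stayed past the threshold. All kept their direction, which the choice of genes with the same sign in every library largely fixed. Depth limits the smallest groups, with 5 IgA cells each in the untreated and STING agonist libraries.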
